A study of Mus musculus with 2 samples.

Results

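The AP-2 family comprises 5 transcription factor genes of the mouse, which were chosen by name: Tcfap2a, Tcfap2b, Tcfap2c, Tcfap2d and Tcfap2e, the older symbols of the genes now called Tfap2a to Tfap2e. A member was counted as marked when a region of the deposited H3K27me3 list carried its symbol. Of the 5 genes, 4 were named, by 8 of the 2017 regions in the list, and Tcfap2d was named by none. H3K27me3 was mapped by ChIP-seq in rib chondrocytes of wild-type CD1 mice at postnatal day 2.5. Cells from 11 mice were cultured overnight in medium with 5% serum. The ChIP library was made with an antibody to histone H3 trimethylated at lysine 27, and the control library from 2% of the chromatin without antibody (input). Each group was 1 library from a single preparation of cells, so no value below has a replicate error, and the intervals given cover counting error only. No other genotype, age or treatment was in the data.

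H3K27me3 is the repressive chromatin mark laid down by Polycomb repressive complex 2 (PRC2), and in many cell types it lies over the silent genes of developmental regulators. AP-2 proteins bind GC-rich DNA as dimers of like or unlike members, through a basic domain followed by a helix-span-helix. They are known for their work in the neural crest, the face and limb buds, the epidermis, the kidney, the trophoblast and the germ line, which lie outside the cartilage lineage of the ribs, although members have also been studied in chondrocytes.

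The starts of the genes were examined first, because CpG-rich starts are a common site of the mark. RefSeq promoter windows (build GRCm38.p6), which run from 250 bases before to 50 bases after a transcript start, were matched for 4 of the 5 members and held 7 windows in all. Tcfap2c had no window in the table. The outermost window of each gene is shown to compare the density of CpG dinucleotides, which are in capitals. The windows lie at chr13:40734871-40735170 on the minus strand for Tcfap2a, chr1:19211804-19212103 on the plus strand for Tcfap2b, chr1:19102772-19103071 on the plus strand for Tcfap2d and chr4:126736220-126736519 on the minus strand for Tcfap2e. These positions belong to GRCm38.p6 and cannot be set against the positions of the H3K27me3 regions, which are on mm9.
Tcfap2a: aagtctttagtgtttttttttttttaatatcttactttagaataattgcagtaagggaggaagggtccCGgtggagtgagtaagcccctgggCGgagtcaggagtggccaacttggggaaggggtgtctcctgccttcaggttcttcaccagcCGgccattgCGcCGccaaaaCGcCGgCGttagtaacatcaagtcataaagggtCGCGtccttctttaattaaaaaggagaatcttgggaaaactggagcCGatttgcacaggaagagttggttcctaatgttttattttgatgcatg
Tcfap2b: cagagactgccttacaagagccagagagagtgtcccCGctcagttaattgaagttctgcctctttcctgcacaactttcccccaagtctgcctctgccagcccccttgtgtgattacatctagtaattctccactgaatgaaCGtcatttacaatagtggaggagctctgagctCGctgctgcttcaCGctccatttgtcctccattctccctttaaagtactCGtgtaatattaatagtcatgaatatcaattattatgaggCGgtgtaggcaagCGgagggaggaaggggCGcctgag
Tcfap2d: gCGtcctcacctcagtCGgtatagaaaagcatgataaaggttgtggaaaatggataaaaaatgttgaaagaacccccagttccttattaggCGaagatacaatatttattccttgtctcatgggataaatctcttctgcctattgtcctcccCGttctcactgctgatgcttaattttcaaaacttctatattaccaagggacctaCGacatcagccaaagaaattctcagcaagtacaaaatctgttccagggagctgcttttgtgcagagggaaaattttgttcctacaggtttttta
Tcfap2e: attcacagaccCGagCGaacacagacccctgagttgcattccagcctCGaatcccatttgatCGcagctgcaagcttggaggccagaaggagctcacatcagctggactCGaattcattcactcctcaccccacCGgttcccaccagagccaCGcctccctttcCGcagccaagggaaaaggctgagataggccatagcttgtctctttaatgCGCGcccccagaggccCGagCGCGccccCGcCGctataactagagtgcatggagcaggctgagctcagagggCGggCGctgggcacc

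The windows of Tcfap2a and Tcfap2e were denser in CpG than those of Tcfap2b and Tcfap2d. The window of Tcfap2e held 17 CpG in 300 bases, and its ratio of observed to expected CpG (from its own C and G content) was 0.635. The outermost window of Tcfap2a held 11 CpG with a ratio of 0.710, and its other window held 15 with a ratio of 0.621. The window of Tcfap2b held 8 CpG with a ratio of 0.458. The 3 windows of Tcfap2d held 5, 5 and 10 CpG, with ratios of 0.425, 0.424 and 0.417. The first and second of these, at 19102772-19103071 and 19102786-19103085, overlap over most of their length. The 7 windows are therefore not independent of each other. Tcfap2a and Tcfap2e were also the members with a region nearest to the 5′ end, as described below. Tcfap2c had no window and Tcfap2d no region, and a link between CpG density and region position was not tested. All 7 windows exceeded the median ratio of all 32851 windows in the table, which was 0.384. Against the 21263 windows of protein-coding genes, whose median was 0.567, only the 3 windows of Tcfap2a and Tcfap2e were above. Windows of the genes named in the H3K27me3 list had a median of 0.654.

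**Figure D1:**
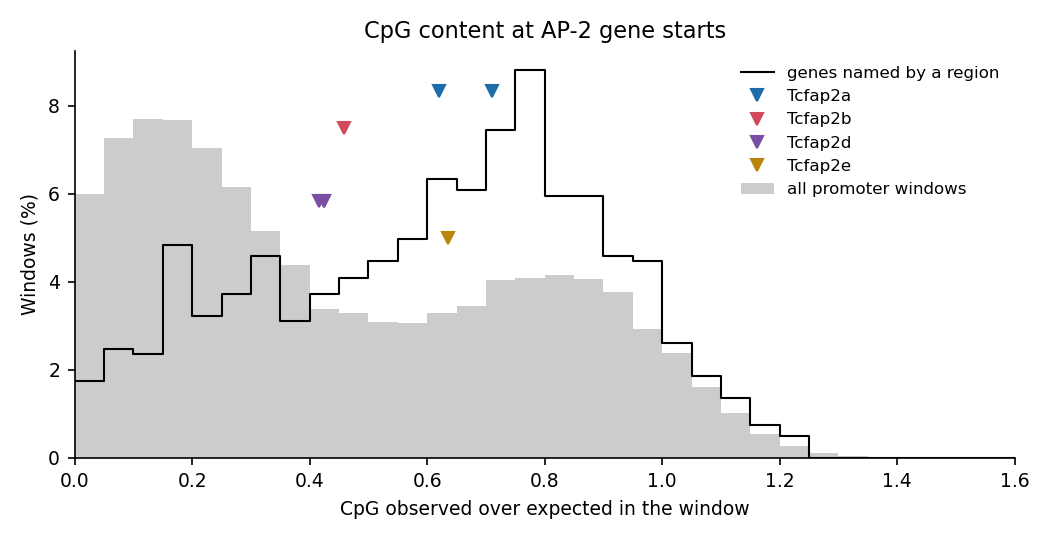
Ratio of observed to expected CpG in promoter windows (x axis) against the percentage of windows in each bin (y axis), for all 32851 RefSeq windows (grey bars) and for the genes named by an H3K27me3 region (black line). Triangles mark the 7 windows of AP-2 genes at arbitrary heights, with Tcfap2a and Tcfap2e between 0.621 and 0.710 and Tcfap2b and Tcfap2d between 0.417 and 0.458.

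Sequence motifs in these windows were searched on both strands. The AP-2 motif GCCNNNGGC, a palindrome bound by the family itself, was found in 0 of the 7 windows, and in 16.6% of all windows and 25.8% of those of genes named in the H3K27me3 list. The GC box GGGCGG was found in 4 of the 7, in both windows of Tcfap2a, the window of Tcfap2e and 1 window of Tcfap2d, against 35.7% of all windows, 46.2% of those of protein-coding genes and 55.7% of those of genes named in the list. The CCAAT box CCAAT and the TATA box TATAAA were each found in 0 of the 7 windows, against 37.4% and 13.6% of all windows. The AP-2 motif and the GC box can overlap in sequence. A missing match says only that these letters were not in the windows. The 7 windows come from 4 genes and include overlapping windows of Tcfap2d, so they are not separate observations.

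The regions of the list are stretches in which a smoothed profile of ChIP reads (tags) stood above input. Each region came with its ChIP and input tag numbers, the highest point of the profile, a q-value and any gene lying up to 5000 bp away. No listed region had a ChIP height under 8 or fewer than 20 ChIP tags, so a weaker mark was not detectable. Total library depth is not in the list, and the ratios of ChIP to input tags below are not scaled for it. None of the 17 symbols fixed as chondrocyte genes (Lect1 and Cnmd name the same gene), among them Col2a1, Acan and Sox9, was named by a region, nor were any of 4 muscle, 3 endothelial, 2 blood and 3 osteoblast genes. Since the list named 3.90% of protein-coding genes, lists of this size would hold few named genes in any case. Expression was not measured in these libraries, so the cell type on the label was not checked in that way.

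Most of the family was named in the list. The 4 of 5 members compare with 3.90% of the protein-coding genes of RefSeq, or 855 of 21900, that could be matched to a gene named in the list. The members were chosen with earlier results of these data known, so this comparison is a description and not a test. Both shares hold for this list alone. The paper reports more marked genes in chondrocytes than this list names, and its further ChIP-seq data were not used here. All 8 regions named 1 AP-2 gene and no other gene. Together they covered 9543 bp and held 476 ChIP tags against 59 from input. The ratio of ChIP to input was 8.07, with a 95% Clopper-Pearson interval of 6.15 to 10.8. Over all regions that named a gene the ratio was 7.67 (7.53 to 7.82), which lies inside the interval of the AP-2 regions. AP-2 regions were thus not distinguishable from other gene-associated regions by their tag ratio at this depth.

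Tcfap2e, known from the olfactory system and also studied in cartilage cells, carried the most regions. Its 3 regions on chromosome 4 (mm9) all lay inside the gene. The first, from 126410901 to 126412344, began 1169 bp downstream of the 5′ end and held 73 ChIP tags and 15 input tags. The second, from 126406901 to 126408104, began 5409 bp downstream and held 57 and 4 tags. The third, from 126401907 to 126403082, began 10431 bp downstream and held 51 and 6 tags. ChIP tags exceeded input in each, which follows from how regions were called. The number of ChIP tags was lower in the regions farther from the 5′ end. Their ratios were 4.87 (2.77 to 9.14), 14.3 (5.27 to 54.1) and 8.50 (3.65 to 24.2), so that the intervals overlapped. The first region was the one in which input itself was high, with an input height of 2.16 that exceeded 95.2% of all regions. Its ratio of heights was 4.20, higher than in only 4.66% of regions. The 3 regions summed to 181 ChIP and 25 input tags, for a ratio of 7.24 (4.75 to 11.5) across 3824 bp, more sequence than 82.4% of the 922 genes named. Regions numbered 3 or more at 15.9% of those genes.

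Tcfap2a, which is needed in the neural crest for the closure of the face and cranial neural tube, had its listed regions upstream of the gene and none within it. Its regions on chromosome 13 (mm9) ran from 40831439 to 40831976 and from 40833549 to 40835931, and ended 2247 and 4357 bp upstream of the 5′ end. These distances use the single 5′ end that follows from the list. It was not matched to either of the 2 RefSeq windows of the gene. The nearer region held 31 ChIP tags and 0 input tags, and the farther 111 and 17. Input was thus seen only in the farther region, which was also more than 4 times as long (2383 against 538 bp). Taking 3 tags as the limit that a count of 0 allows, ChIP was at least 10.3-fold higher than input in the nearer region, a bound that leaves out the counting error of the ChIP tags. The lower limit of the Clopper-Pearson interval for that region was 7.91. In the farther region the ratio was 6.53 (3.90 to 11.6). The ratio between these ratios had an exact conditional 95% interval that began at 1.07, and Tcfap2a was the only member with a pair of regions whose interval did not include 1. Of the 5 such pairs within members, the other 4 included 1, and the intervals were not adjusted for the number of pairs. The gene as a whole had 142 ChIP and 17 input tags, for a ratio of 8.35 (5.04 to 14.7). The farther region had the best rank of the 8, 444 of 2017.

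Tcfap2c, a regulator of the trophoblast and of primordial germ cells, carried the mark around its 3′ end. On chromosome 2 (mm9), the region from 172382578 to 172383020 lay inside the gene, 6087 bp from the 5′ end and 1099 bp short of the 3′ end that follows from the distances in the list. The region from 172384497 to 172386343 began 378 bp past that 3′ end. They held 29 ChIP tags and 4 input tags, and 93 and 12. Their ratios of ChIP to input were 7.25 (2.55 to 28.4) and 7.75 (4.23 to 15.5), with overlapping intervals. The short region inside the gene held 65.5 ChIP tags per kb, more than 93.9% of all regions. This share is over regions of every length, and an effect of length on density was not tested. For the gene the ratio was 7.63 (4.51 to 13.8), from 122 ChIP tags and 16 input tags.

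Tcfap2b, which acts in the kidney, the limb and the ductus arteriosus, had a single short region. It lay inside the gene on chromosome 1 (mm9), from 19222618 to 19223125, 20483 bp downstream of the 5′ end. It held 31 ChIP tags and 1 input tag, a ratio of 31.0 (5.17 to 1263), which the single input tag leaves almost without an upper limit. With 508 bp it was shorter than all but 11.7% of regions. Tcfap2d, the member best known from the developing brain and retina, neighbours Tcfap2b on chromosome 1, with 0 protein-coding genes between them in RefSeq, and was without a listed region. No other region was listed within 1174918 bp on one side of the Tcfap2b region and 17575993 bp on the other, so that the list held no further region in that stretch.

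**Figure D2:**
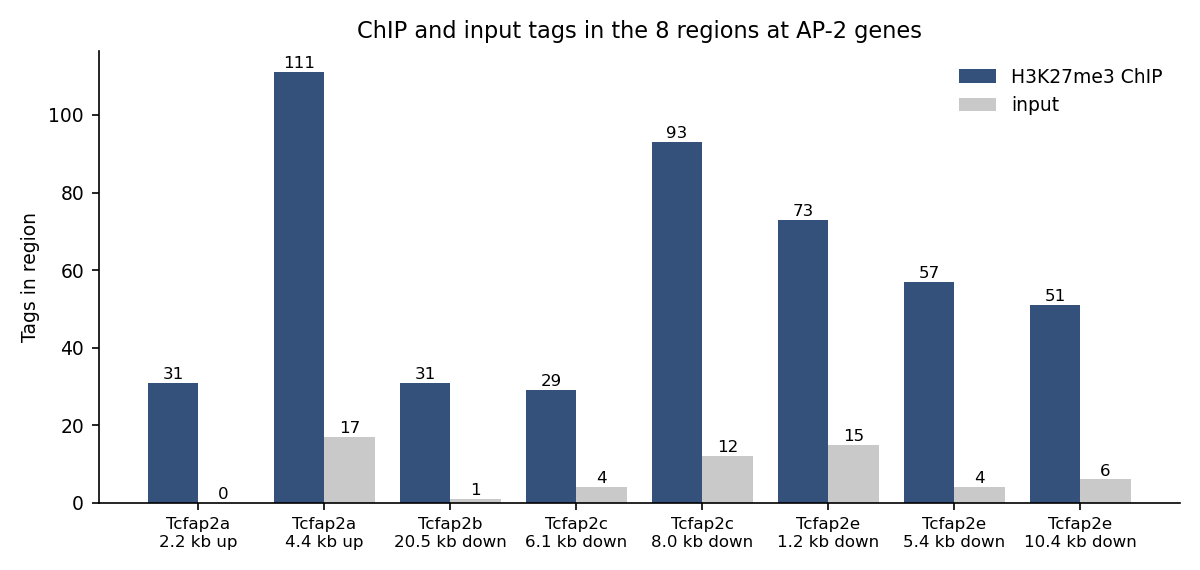
Number of ChIP tags (dark bars) and input tags (light bars) in each of the 8 regions, with the gene and the distance of the nearer region edge from its 5′ end (up, upstream; down, downstream). ChIP counts ran from 29 to 111 and input counts from 0 to 17, not scaled for library depth. ChIP exceeded input in each region, which follows from how regions were called.

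The order of the members by ratio was Tcfap2b, Tcfap2a, Tcfap2c and Tcfap2e, but neighbours in that order were not separated. The ratio of Tcfap2a was 0.27 times that of Tcfap2b (exact conditional 95% interval 0.01 to 1.86). It was 1.10 times that of Tcfap2c (0.49 to 2.41), which in turn was 1.05 times that of Tcfap2e (0.52 to 2.20). The intervals of all 6 pairs of members included 1, and they were wide enough to leave room for differences of more than 2-fold. The number of ChIP tags per kb does not use input. By this measure the members ran from 47.3 at Tcfap2e and 48.6 at Tcfap2a to 53.3 at Tcfap2c and 61.0 at Tcfap2b. Tcfap2b was highest and Tcfap2e lowest by either measure, but both measures use the same ChIP tags. Tcfap2b also had the least sequence in regions (508 bp) and Tcfap2e the most (3824 bp), and an effect of length was not tested.

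**Figure D3:**
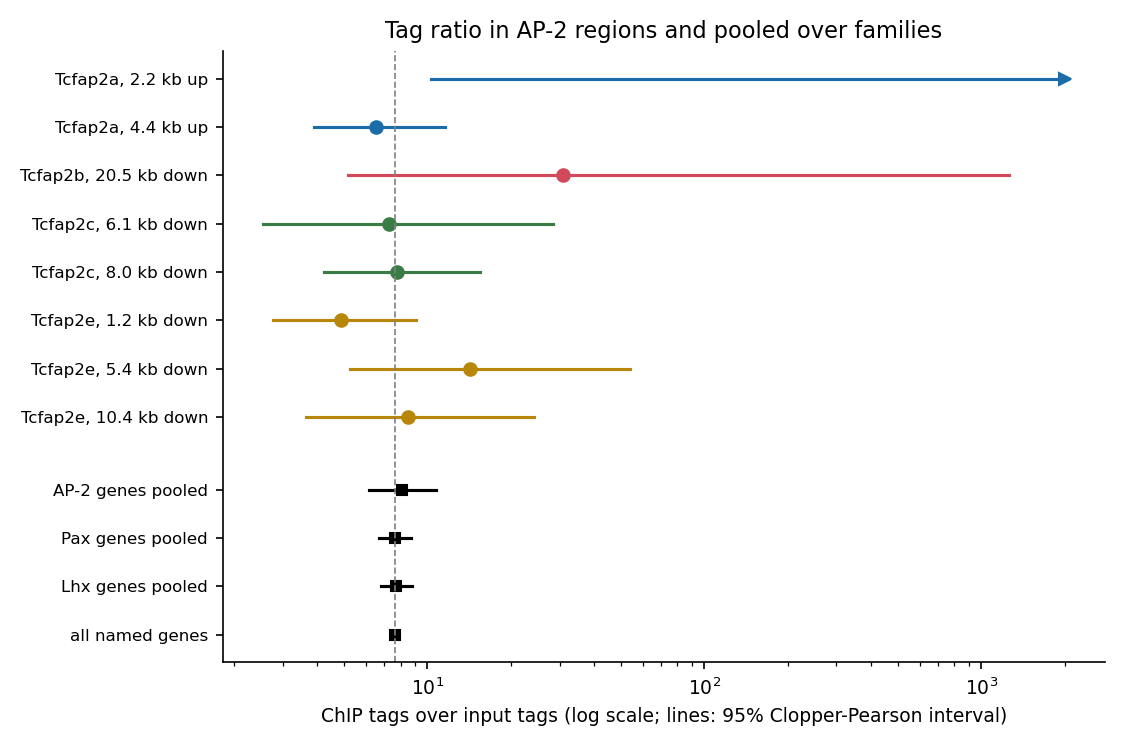
Ratio of ChIP to input tags (x axis, log scale) in the 8 AP-2 regions (circles) and pooled over the regions of AP-2, Pax and Lhx genes and of all named genes (squares), with 95% Clopper-Pearson intervals. The arrow is the Tcfap2a region without input tags. It starts at the bound of 10.3 and not at the lower Clopper-Pearson limit, which was 7.91. The dashed line is the 7.67 of all named genes, and the intervals of 7 of the regions include it.

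The listed regions at AP-2 genes lay to the side of the 5′ ends that the list uses, and other transcript starts were not examined. A region covered the 5′ end of 0 of the 4 marked members, against 9.87% of the genes named. Among other transcription factor families, this was so for 0 of the 8 Pax genes named and 1 of the 8 Lhx genes named. A region lay within 2500 bp of the 5′ end in 2 of the 4, Tcfap2a and Tcfap2e, against 56.1% of the genes named. A region overlapped the gene in 3 of the 4, Tcfap2b, Tcfap2c and Tcfap2e, against 63.8%. With 4 genes, these counts are too few to be told apart from their backgrounds. The median distance from the 5′ end to the nearest region was 4167 bp over the 4 members and 2118 bp over all named genes. For the named Pax and Lhx genes it was 1874 and 1175 bp. For the 4 named genes of a further family of homeobox genes it was 869 bp. In that family a region covered the 5′ end of 1 gene and lay within 2500 bp of it in 3. More than 1 region was found at 3 of the 4 AP-2 members, against 36.4% of the genes named. The regions of a member were listed separately, with gaps of 1573 bp at Tcfap2a, 1477 bp at Tcfap2c and 2797 and 3819 bp at Tcfap2e. The list gives no values for the gaps, so a weaker mark there could not be seen. From the first to the last base marked, the regions spanned 10438 bp at Tcfap2e, 4493 bp at Tcfap2a and 3766 bp at Tcfap2c.

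**Figure D4:**
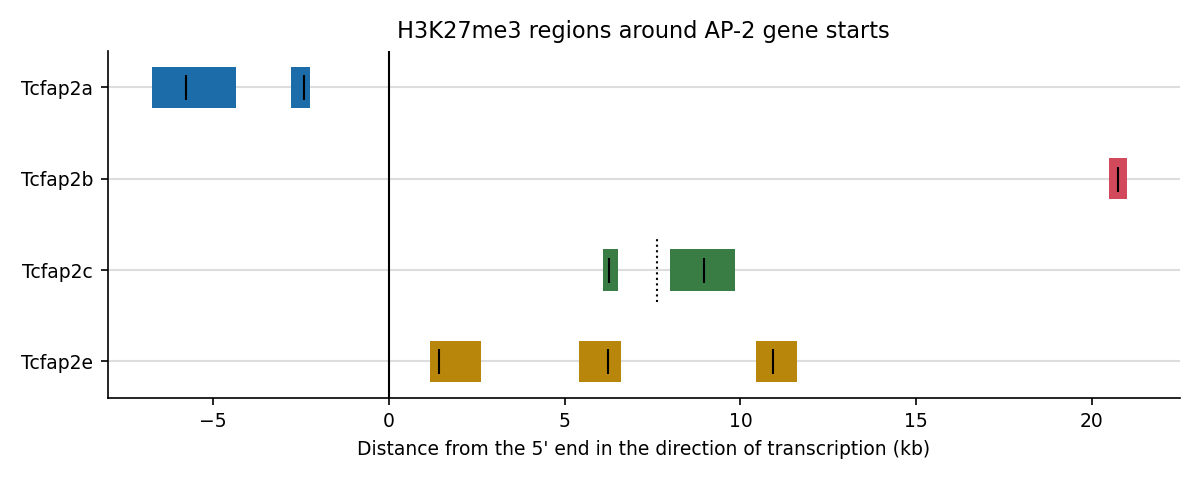
Position of the 8 regions relative to the 5′ end of each gene, in kb along the direction of transcription (x axis), with the highest point of the ChIP profile as a vertical tick and the 3′ end of Tcfap2c as a dotted line. Regions lie upstream at Tcfap2a, within the gene at Tcfap2b and Tcfap2e and around the 3′ end at Tcfap2c, and none touches the 5′ end.

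ChIP heights at AP-2 genes ran from 8.07 to 9.05, with a median of 8.62, close to the median of 8.68 over the 2017 regions, and 4 of the 8 exceeded the latter. A height of at least 10 was reached at 0 of the 4 members, against 19.5% of the genes named, and 4 genes are too few to set this count apart from that share. The length of AP-2 regions ranged from 443 to 2383 bp around a median of 1190 bp, and 5 of the 8 exceeded the median of all regions of 1067 bp. Their median of 54 ChIP tags was close to the 56 of all regions. The deposited tag enrichment, in which the input is set to at least 9.20 tags per kb, had a median of 5.31 at AP-2 genes and 5.70 over all regions. This floor replaced the measured input in 7 of the 8 AP-2 regions and in 1552 of all regions, so that for most regions the enrichment is the density of ChIP tags. It was lowest at the third Tcfap2e region, at 4.71, and highest at the short Tcfap2c region, at 7.11.

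**Figure D5:**
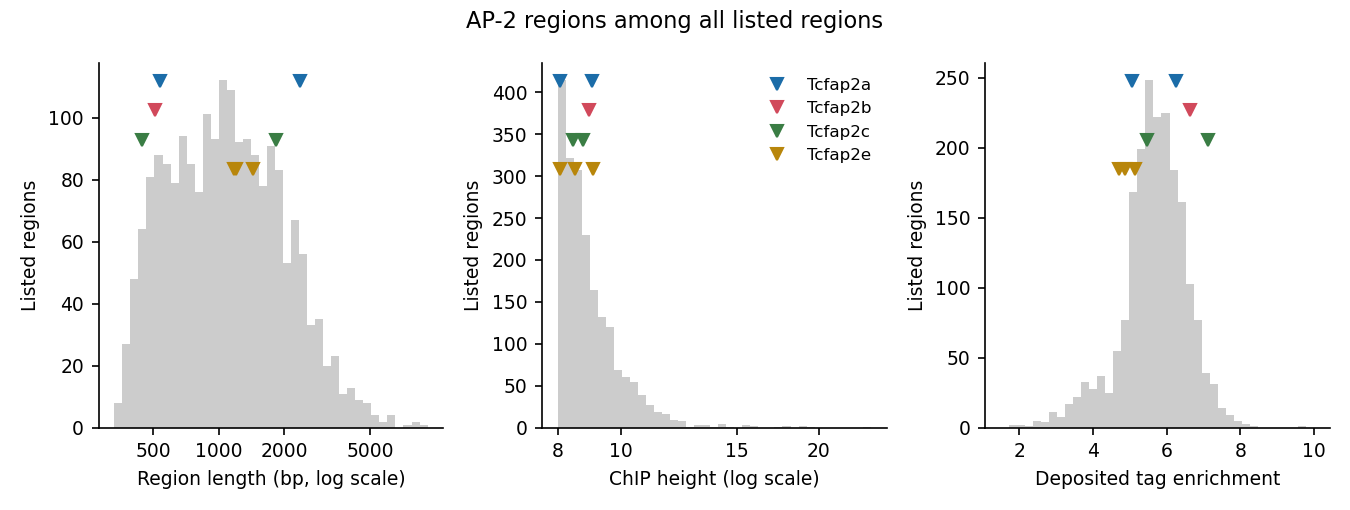
Number of listed regions (y axes) by length, ChIP height and deposited tag enrichment for all 2017 regions (grey), with the AP-2 regions as triangles at arbitrary heights. AP-2 regions lie between 443 and 2383 bp in length, between 8.07 and 9.05 in height and between 4.71 and 7.11 in enrichment, and none is among the longest or highest regions.

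Other developmental transcription factor families were compared by the same counts. Regions named 8 of 9 Pax genes and 8 of 8 Lhx genes in RefSeq. AP-2 genes had a median of 2 regions each, Pax genes 2.5 and Lhx genes 3. The median length marked per gene was 2606 bp for AP-2, 2943 bp for Pax and 4975 bp for Lhx, and 1536 bp over all named genes. The pooled ratios of 7.65 (6.70 to 8.76) at Pax and 7.73 (6.82 to 8.79) at Lhx genes lay within the interval of the AP-2 genes. Heights of at least 10 were found at 3 of the 8 Pax genes and 5 of the 8 Lhx genes, and at 0 of the 4 AP-2 genes. The further family of homeobox genes, of which 4 of 6 were named, likewise had 0 genes with such a height. Its median of 1.5 regions per gene was below that of AP-2. These are counts of few genes, and the differences between families were not tested.

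Genes that work with AP-2 factors were then read from the list. These groups of genes were chosen with earlier results of these data known, so their shares are descriptions and not tests. Of 8 genes for AP-2 partners, such as the coactivators Cited2 and Cited4 and the inhibitor Kctd15, 0 were named, against 3.90% of all protein-coding genes. Of 19 genes of the neural crest and the neural plate border, 10 were named (52.6%): Pax3, Pax7, Msx1, Msx2, Zic1, Zic2, Foxd3, Dlx5, Dlx6 and Gbx2. Pax7, which specifies neural crest and muscle stem cells, had 5 regions that contained 417 ChIP and 44 input tags, for a ratio of 9.48 (6.94 to 13.2). Foxd3, an early neural crest factor, had 1 region with 68 and 6 tags. Sox9 and Sox10, Snai1 and Snai2 and Twist1 were among the 9 that were not named, and some of these, Sox9 in particular, are genes that chondrocytes use.

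Among 15 face and limb patterning genes, 8 were named (53.3%), against 3.90% of all protein-coding genes, Hand2, Barx1 and Lmx1b among them. Lmx1b, the dorsal limb factor, had the most sequence of these, with 6 regions over 10566 bp, 542 ChIP tags and 76 input tags. Their median was 3.5 regions per gene, against 2 for AP-2. Of 7 trophoblast genes, 3 were named, Cdx2, Eomes and Gata2, and Cdx2 had a region over its 5′ end. Of 8 genes known as AP-2 targets, 1 was named, a count too small to be told apart from the 3.90%. This was Cdh1, the gene of E-cadherin, with 48 ChIP tags and 17 input tags in 1 region and a ratio of 2.82 (1.59 to 5.24), an interval below the 7.67 of all gene-associated regions.

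The genes most like each marked member were sought over 4 measures of this library (length marked, ChIP tags, highest ChIP height and mean deposited enrichment, each on the log2 scale). Nearest to Tcfap2a were Cdx1 and Slc6a7, which share the same 2 regions, at a distance of 0.07. Nearest to Tcfap2b was Dlx5 at 0.01, followed by Acbd7 and Olah, which share a region, at 0.03. Rnf207 (0.06), Cbln1 and Ovol1 (both 0.11 to 0.12) were nearest to Tcfap2c, and Nags and Tmem101, which share regions, and Unc45b were nearest to Tcfap2e, at 0.11 to 0.14. Dlx5, Cdx1 and Ovol1 encode transcription factors and the others do not. The measures are not independent of each other and come from 1 ChIP library.

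Beyond the gene, members differed in their surroundings. The nearest region that did not name the member lay 1939354 bp away at Tcfap2a and 1174918 bp away at Tcfap2b, but 40812 bp away at Tcfap2c and 77345 bp away at Tcfap2e. Over all named genes the median was 102986 bp, and 16.6% of genes were more than 1 Mb from the nearest such region. Within 100 kb of a member's regions, 0 further regions were listed at Tcfap2a and Tcfap2b, 1 at Tcfap2c and 3 at Tcfap2e, and all of them were without a named gene. The region near Tcfap2c lay upstream of its 5′ end and held 38 ChIP tags and 8 input tags. Those near Tcfap2e lay between 88951 and 98572 bp downstream of its 5′ end and held 34, 50 and 36 ChIP tags against 6, 12 and 4 input tags. Their heights of 9.49, 8.85 and 9.48 were in the same range as or slightly above those in the gene.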

How the data were processed

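H3K27me3 ChIP and input DNA from rib chondrocytes were sequenced as 1 library each. Per the labels, the authors aligned the reads to mm9, and QuEST (DNA Nexus) was run against input to find regions. Versions and settings are not given in the sources used here. The deposited counts are whole, unscaled tags per region. In the deposited ratio (tag enrichment), ChIP tags are divided by input tags with a floor on input of 9.20 tags per kb found from the values. The deposited signal is the height of the smoothed profile, and the q-value is deposited as −log10. The deposited positions are on mm9; the floor came out the same in every region when both end positions were counted in the length.

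The members and gene lists were chosen with earlier results of these data known. The genes named were the members, every listed gene of the fixed lists, and the 3 genes nearest to each member by Euclidean distance over 4 log2 measures. Measured tags gave ratios with Clopper-Pearson intervals and, between members or regions, exact conditional intervals of the odds ratio (scipy 1.17.1), checked on simulated data. These treat tags as independent. A gene's 5′ end was taken from the distances in the list, with the strand from RefSeq where it was given. RefSeq names matched 857 of the 922 gene names to a protein-coding gene, and these stand for 855 different genes; the other 65 were left out of that share only. Proteins and the mm9 sequence of the regions were not analysed here, and the results of some listed genes are not reported here. Alternatives were limits on height, q-value and position, merging within 3000 bp, wider windows, current symbols and other promoter windows. Python 3.11.15, numpy 2.4.6, pandas 2.3.3 and matplotlib 3.10.9 were used.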

Additional observations from a re-analysis of the deposited data

How the results depend on the processing

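Of 32 values recomputed under an alternative, 17 stayed and 15 moved. The limits for staying were 1.5 times the main count, the interval of the main ratio or 1 SD of the main promoter value. These limits do not account for all of the 15. The Tcfap2a bound of 10.3, inside the interval of its main ratio, and the 42.9% given below were also counted as moved. A ChIP height of at least 10 left 0 members, 0 regions and 0 bp. With −log10 q-values at or above the median, 3 regions and 5674 bp were left, and with regions overlapping the gene, 5 regions and 4775 bp. Keeping regions up to 2500 bp from the 5′ end left 2 members, 2 regions and 1982 bp, and Tcfap2a kept only its region without input tags, at least 10.3-fold above input. Merging within 3000 bp gave 5 regions. Counting all regions within 200 kb, a window chosen after seeing the data, gave 16 regions and 17345 bp. The median CpG ratio of AP-2 windows exceeded 55.3% of all windows but 42.9% of those of protein-coding genes, a background also chosen after seeing the data. The ratio over the members ran from 6.30 to 8.07 and stayed within its interval wherever it could be computed. Current Tfap2 symbols added 0 regions. Each alternative on height, q-value or position keeps fewer of the same regions, so the lower counts follow from its construction. No paired analysis was possible because each group held 1 library. With 0 to 17 input tags per region, counting error limits the comparison of ratios between members.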

Other observations

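A group of 3 regions without a named gene lay between 178004 and 187896 bp downstream of the 5′ end of Tcfap2c, outside the 100 kb window, and was described after its values were seen. They held 77, 89 and 35 ChIP tags against 4, 0 and 2 input tags. The ratios of the outer regions of this group were 19.3 (95% Clopper-Pearson interval 7.22 to 72.4) and 17.5 (4.50 to 150), and in the second ChIP was at least 29.7-fold higher than input, taking 3 tags as the limit for a count of 0 and leaving out the counting error of the ChIP tags. Within 200 kb of the Tcfap2e regions, 1 region named another gene, 5730409E04Rik, with 57 ChIP tags and 12 input tags. At Tcfap2a and Tcfap2b the same window held 0 further regions.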
